A study of Drosophila melanogaster with 6 samples.

Results

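A set of 10 genes of the protein folding machinery of the endoplasmic reticulum (ER) was followed in Drosophila indirect flight muscle (IFM). They were taken by FlyBase symbol as Hsc70-3, Gp93, Calr, Cnx99A, Pdi, CaBP1, ERp60, Xbp1, Ire1 and Herp, a rule on names alone, although earlier results of these data were known when the genes were chosen. These are 10 of the 16428 genes with exon-bin counts, and they held 59 of the 77774 exon bins. All 10 passed the filter on low counts, which kept 11753 genes.

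Poly A-selected RNA of dissected IFM was sequenced at 72 h after puparium formation (APF) from flies kept at 27 °C. WT carried the driver alone (Mef2-Gal4 / +). SF1-IR was Mef2-Gal4 / SF1-RNAi (GD5176), aimed at the branch point binding protein SF1, and Hrb87F-IR was Mef2-Gal4 / Hrb87F-RNAi (TRiP.JF01757), aimed at an hnRNP A/B family RNA-binding protein. Each of the 3 groups had 2 libraries, and the 2 comparisons with WT asked which genes and exons respond to loss of each splicing-associated factor. All groups carried Mef2-Gal4, which is active in every muscle and not in IFM alone, each knockdown rested on 1 hairpin line, and the muscles of many flies were pooled into each library. Beyond this pooling nothing states how the replicates were separated, so p-values measure the spread between these libraries, which may be technical.

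Proteins that enter the ER are held by the Hsp70 and Hsp90 chaperones of its lumen, folded as glycoproteins by the calnexin and calreticulin lectins, and cross-linked by protein disulfide isomerases. When unfolded proteins build up, the sensor Ire1 cuts a short intron out of Xbp1 mRNA, and the shifted reading frame gives the active transcription factor. In flies, as in mammals, its targets include genes of chaperones and of ER-associated degradation, among them Hsc70-3, which is widely used as a readout of this response.

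Exon bins summed to between 63393347 and 72057010 counts per library. The IFM label was borne out by its markers, of which all 8 were counted, with a summed level of 213032 and 237521 counts-per-million (CPM, on library sizes scaled by TMM) in WT. It was 166683 and 161828 CPM in the SF1-IR libraries, with 157228 and 141449 CPM for Hrb87F-IR. This sum is carried by Mhc, Act88F, Mlc2 and fln. By gene, 7 of the 8 markers lay below both WT libraries in SF1-IR and 5 in Hrb87F-IR, where bru1, salm and Mlp84B overlapped WT, as Mlp84B did in SF1-IR. Of all genes tested, 22.7% lay below both WT libraries in SF1-IR and 21.1% in Hrb87F-IR. Among the lists for other cell types, none had a counted marker at 0 in all libraries. The fat body sum (7 of 8 markers counted) was 289 and 265 CPM in WT and 337 and 322 CPM in SF1-IR. It was lower in Hrb87F-IR, at 254 and 255 CPM. The tendon sum (4 of 4) was 87.9 and 82.4 CPM in WT and 94.5 and 120 CPM in SF1-IR. In Hrb87F-IR the trachea sum (3 of 5) was 737 and 714 CPM against 458 and 621 CPM in WT, the neuron sum (5 of 6) 686 and 700 CPM against 577 and 604 CPM, and the epidermis and cuticle sum (5 of 5) 317 and 333 CPM against 220 and 295 CPM. By gene these lists did not move as a whole. In SF1-IR, Lsp2, Mtp, Lrt and Tig lay above both WT libraries, Lsp1alpha and Lsp1beta below, and the other fat body and tendon markers overlapped WT. In Hrb87F-IR, verm, Gasp, nSyb, brp, Syt1, para and dpy lay above both WT libraries. There nrv3 lay below, and the other trachea, neuron, epidermis and cuticle markers overlapped WT. Of the fat body markers in Hrb87F-IR, Lsp2, Lsp1beta, Lsp1gamma and Fbp1 lay below both WT libraries. By contrast, apolpp and Mtp lay above them, and Lsp1alpha overlapped WT. The haemocyte sum (7 of 8) was 930 and 848 CPM in WT, and both knockdowns overlapped it. The part of these shifts in the results for the ER genes was not tested. In bulk RNA, fewer cells of a type and less RNA per cell cannot be told apart. Testis markers (5 of 5) stood apart in WT replicate 1 (summed 46.2 CPM) and SF1-IR replicate 2 (41.0 CPM), against 2.12 to 9.91 CPM in the other libraries. The Hrb87F transcript was 29.8 and 30.5 CPM in WT and 14.8 and 18.1 CPM in Hrb87F-IR, at -0.87 on the log2 scale (adjusted p = 0.0347 by edgeR). The SF1 transcript was 24.6 and 29.9 CPM in WT and 25.6 and 19.3 CPM in SF1-IR (log2 fold change -0.28, adjusted p = 0.473 by edgeR). Those ranges overlapped, so SF1-IR here means the libraries labelled SF1-IR.

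A second deposited table, of counts per gene, did not match the exon-bin counts in WT. The per-gene count of a gene divided by its summed bin count was 0.343 to 0.480 for the 10 genes in the 4 knockdown libraries and 0.203 to 1.54 in the 2 WT libraries. Over 6977 well-counted genes, the median absolute log2 deviation of this ratio from its knockdown median was 0.0169 to 0.0210 in the knockdown libraries, 1.03 in WT replicate 1 and 1.60 in WT replicate 2. The per-gene totals were 70664995 and 112295405 counts in WT and 29644449 to 31484532 counts in the knockdowns. Every comparison with WT below rests on the exon-bin WT columns. On the per-gene counts Hsc70-3 was instead higher in SF1-IR (log2 fold change 0.96, adjusted p = 0.00650 by edgeR) and in Hrb87F-IR (1.31, adjusted p = 0.00416), and the median log2 fold change of the 10 genes turned from -0.73 to 0.32 in SF1-IR and from -0.56 to 0.28 in Hrb87F-IR. Which WT columns are right was not tested.

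**Figure D1:**
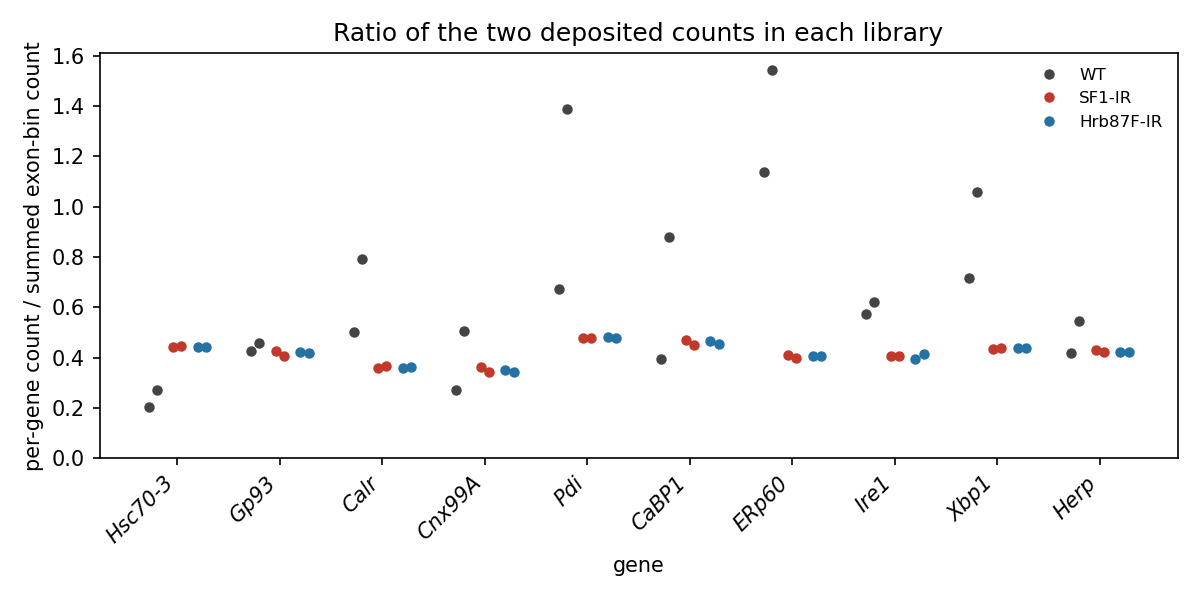
Per-gene count divided by the summed exon-bin count (vertical axis, a ratio) for each of the 10 genes (horizontal axis), with 1 point per library. The SF1-IR and Hrb87F-IR points lie between 0.343 and 0.480, and the WT points spread from 0.203 to 1.54.

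In WT IFM the 10 genes covered a wide range of levels. Per kilobase of binned exon, Hsc70-3 was the most abundant at 257 ± 45.6 CPM per kb (mean ± SD, n = 2), and Xbp1 came next at 182 ± 8.28 CPM per kb. Calr followed at 83.7 CPM per kb, then Cnx99A at 52.6 and Gp93 at 45.8 CPM per kb, whose WT libraries overlapped. Pdi at 30.8 and ERp60 at 30.3 CPM per kb also overlapped, and CaBP1 (14.8), Herp (13.3) and Ire1 (6.44 CPM per kb) were lowest. Summed over the 10 genes the level was 1763 and 2123 CPM in WT, 1211 and 1179 CPM in SF1-IR, and 1263 and 1280 CPM in Hrb87F-IR. Hsc70-3 alone made up 45.8% and 49.0% of that sum in WT, against 32.9% and 29.8% in SF1-IR, with 38.5% and 37.5% for Hrb87F-IR.

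**Figure D2:**
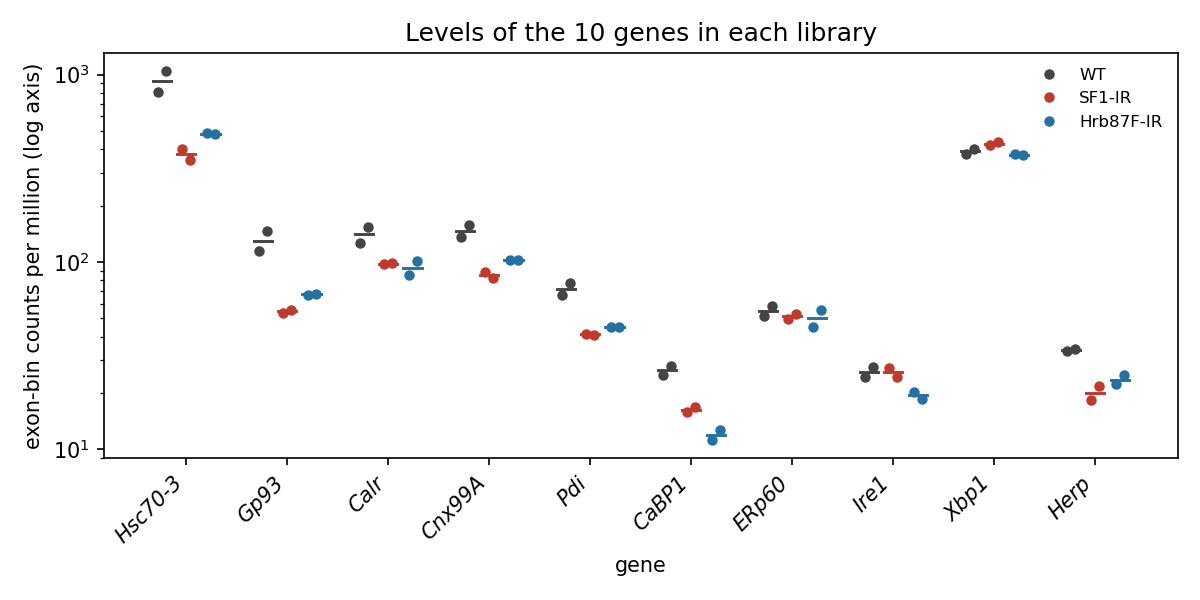
Level of each gene in each library as exon-bin CPM on a log axis, with 2 points per group and a bar at the group mean. Hsc70-3, Gp93, Calr, Cnx99A, Pdi, CaBP1 and Herp lie lower in both knockdowns than in WT, Ire1 lies lower in Hrb87F-IR, and ERp60 and Xbp1 overlap WT or, for Xbp1 in SF1-IR, lie above it.

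The lumenal chaperones fell the most in SF1-IR. Hsc70-3, the ER Hsp70 known as BiP in mammals (X:11801696-11807117, minus strand, BDGP6.22), measured 808 and 1040 CPM in WT, 398 and 351 CPM in SF1-IR, and 487 and 481 CPM in Hrb87F-IR. All 4 knockdown libraries lay below both WT libraries. Its level in SF1-IR was 0.406 times that in WT (log2 fold change -1.30 ± 0.14 SE, adjusted p = 0.00422 by edgeR). In Hrb87F-IR it was 0.524 times WT (-0.93 ± 0.14, adjusted p = 0.0347), which did not pass 0.01. Gp93, the ER Hsp90 (3R:27948711-27952151), measured 114 and 146 CPM in WT, 53.7 and 55.2 CPM in SF1-IR, and 66.7 and 67.5 CPM in Hrb87F-IR. Again no knockdown library reached a WT library. Gp93 fell by 1.25 ± 0.13 on the log2 scale in SF1-IR (adjusted p = 0.00390 by edgeR), and its log2 fold change in Hrb87F-IR was -0.95 ± 0.13 (adjusted p = 0.0289). Without WT replicate 1, 1 of the 2 libraries with the most testis transcripts, both calls held in SF1-IR (-1.47 for Hsc70-3 and -1.42 for Gp93). Both were lost without any one of the other 5 libraries. Without SF1-IR replicate 2, the other of these 2 libraries, the log2 fold changes were -1.21 and -1.28, and the smallest came without WT replicate 2, at -1.04 and -1.01.

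Both lectin chaperones lay below WT in both knockdowns, and 1 of them was called in SF1-IR. Cnx99A, a membrane-bound calnexin (3R:29315254-29319644), measured 136 and 158 CPM in WT, 88.0 and 81.8 CPM in SF1-IR, and 103 and 103 CPM in Hrb87F-IR, with no overlap between either knockdown and WT. It fell by 0.79 ± 0.11 on the log2 scale in SF1-IR (adjusted p = 0.00968 by edgeR), just inside the threshold, and was at -0.51 ± 0.11 in Hrb87F-IR (adjusted p = 0.090). Calr, the soluble calreticulin (3R:9628691-9630851), measured 127 and 154 CPM in WT, 97.4 and 98.3 CPM in SF1-IR, and 85.1 and 102 CPM in Hrb87F-IR. The knockdown libraries again all lay below WT, but neither log2 fold change passed (-0.52 ± 0.14, adjusted p = 0.0767 in SF1-IR, and -0.59 ± 0.14, adjusted p = 0.104 in Hrb87F-IR, both by edgeR). The difference between the 2 genes was not tested.

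Among the 3 thioredoxin-fold enzymes, Pdi and CaBP1 lay below WT in both knockdowns, and ERp60 overlapped WT in both. Pdi, the protein disulfide isomerase (3L:15137738-15142840), measured 66.6 and 76.8 CPM in WT, 41.5 and 40.9 CPM in SF1-IR, and 44.8 and 45.1 CPM in Hrb87F-IR. It fell by 0.80 ± 0.11 on the log2 scale in SF1-IR (adjusted p = 0.00824 by edgeR) and was at -0.67 ± 0.11 in Hrb87F-IR (adjusted p = 0.0395). CaBP1, a fly relative of the mammalian isomerase PDIA6 (2L:16354886-16356735), measured 25.1 and 27.7 CPM in WT, 15.8 and 16.7 CPM in SF1-IR, and 11.2 and 12.7 CPM in Hrb87F-IR. The Hrb87F-IR libraries were the lowest, and the log2 fold change was -1.14 ± 0.13 there (adjusted p = 0.0187) and -0.70 ± 0.13 in SF1-IR (adjusted p = 0.0238, both by edgeR). ERp60, a relative of mammalian PDIA3 that serves glycoproteins (2R:11887568-11890979), measured 51.5 and 57.9 CPM in WT, 49.5 and 52.9 CPM in SF1-IR, and 45.2 and 55.3 CPM in Hrb87F-IR. Its groups overlapped throughout (log2 fold change -0.10 ± 0.13 in SF1-IR and -0.12 ± 0.13 in Hrb87F-IR, adjusted p = 0.864 and 0.737 by edgeR).

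The sensor and the transcription factor of the response did not pass the test in either comparison. Ire1, the kinase and ribonuclease that senses unfolded protein (3R:19853908-19861291), measured 24.4 and 27.6 CPM in WT, 27.3 and 24.2 CPM in SF1-IR, and 20.3 and 18.6 CPM in Hrb87F-IR. It overlapped WT in SF1-IR (log2 fold change -0.01 ± 0.12, adjusted p = 0.998 by edgeR) and lay below WT in Hrb87F-IR without passing (-0.42 ± 0.12, adjusted p = 0.178). Xbp1, the transcription factor downstream of Ire1 (2R:21143545-21145750), measured 377 and 402 CPM in WT, 421 and 436 CPM in SF1-IR, and 378 and 371 CPM in Hrb87F-IR. Both SF1-IR libraries were above WT, at a log2 fold change of 0.14 ± 0.09 (adjusted p = 0.531 by edgeR), and Hrb87F-IR overlapped WT (-0.06 ± 0.09, adjusted p = 0.817). Herp, an ER membrane protein of the degradation pathway (2L:7796314-7800058), measured 33.4 and 34.5 CPM in WT, 18.3 and 21.7 CPM in SF1-IR, and 22.2 and 24.9 CPM in Hrb87F-IR. Its knockdown libraries lay below WT, at -0.76 ± 0.13 in SF1-IR (adjusted p = 0.0173 by edgeR) and -0.53 ± 0.13 in Hrb87F-IR (adjusted p = 0.113).

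**Figure D3:**
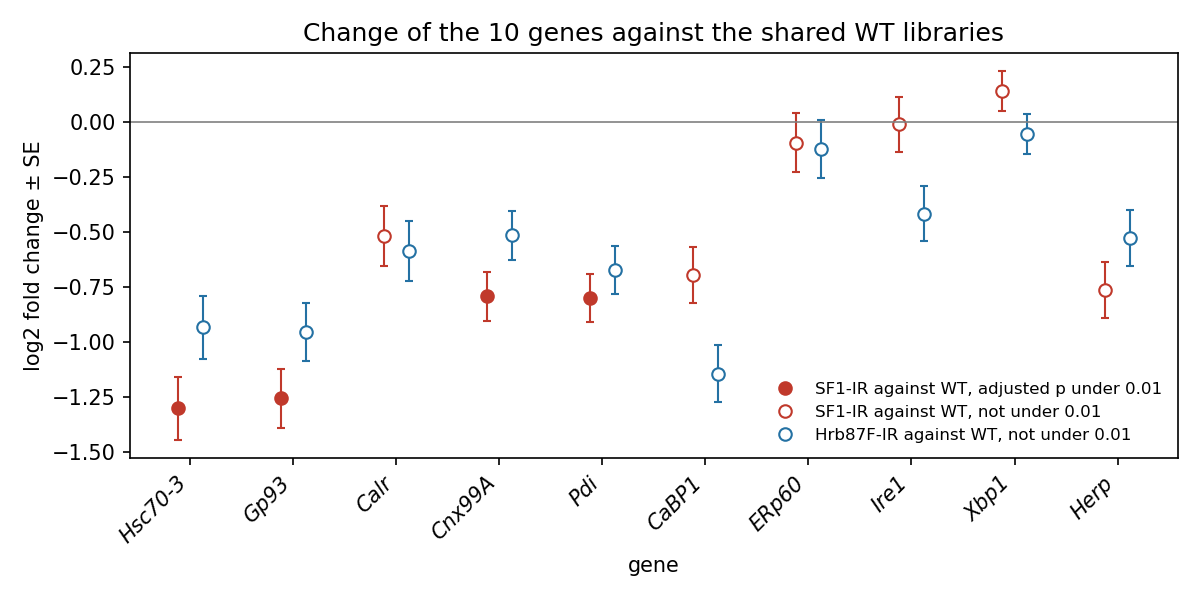
Log2 fold change ± SE of each gene in either knockdown, set against the same 2 WT libraries, with filled points at an edgeR adjusted p under 0.01. The filled points are Hsc70-3 (-1.30), Gp93 (-1.25), Cnx99A (-0.79) and Pdi (-0.80) in SF1-IR.

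In SF1-IR, 4 of the 10 genes passed an adjusted p under 0.01 as lower and 0 as higher, where 1.41% of all genes tested were called lower and 1.27% higher. At an adjusted p under 0.05, 6 of the 10 were lower (Herp and CaBP1 besides), against a background of 4.7%. Both SF1-IR libraries lay below both WT libraries for 7 of the 10, where 22.7% of all genes did. The log2 fold change had a median of -0.73 over the 10 genes and -0.02 for all genes tested. The 4 calls rested on all 6 libraries. Without WT replicate 1 there were 2 calls, and without any one of the other 5 libraries, the Hrb87F-IR ones included since they share the estimate of spread, there were 0 calls, with 2 to 5 of the 10 at an adjusted p under 0.05 and 6 or 7 at an unadjusted p under 0.05 (edgeR). With all 6 libraries, 7 were at an unadjusted p under 0.05, as were 19.6% of all genes tested. With only WT and SF1-IR in the fit there were 0 calls as well (4 at an adjusted p under 0.05, 7 at an unadjusted p under 0.05), whereas DESeq2 on the 6 libraries called 7 of the 10 and 9.07% of all genes tested.

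In Hrb87F-IR, 0 of the 10 passed 0.01 by edgeR, where 0.0596% of all genes tested did in either direction. At an adjusted p under 0.05, 4 of the 10 were lower (CaBP1, Gp93, Hsc70-3 and Pdi), against a background of 1.25%, and 8 were at an unadjusted p under 0.05, as were 15.2% of all genes. Leaving out either Hrb87F-IR library or WT replicate 2 brought those 4 to 0, and leaving out SF1-IR replicate 1 brought them to 1. DESeq2 called 7 of the 10 at 0.01, and 4.64% of all genes tested. Both Hrb87F-IR libraries lay below both WT libraries for 8 of the 10 genes, where 21.1% of all genes did, and the 10 had a median log2 fold change of -0.56, with -0.03 for all genes tested. The 2 comparisons share their WT libraries, so a high WT value enlarges both differences.

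Set directly against each other, SF1-IR and Hrb87F-IR differed for 0 of the 10 genes at an adjusted p under 0.01, where 2.13% of all genes tested did. By DESeq2 the number was also 0, where 8.45% of all genes were called, and 4 of the 10 were at an unadjusted p under 0.05 by edgeR, against 19.2% of all genes. Those 4 were CaBP1 and Ire1, higher in SF1-IR by 0.45 ± 0.13 and 0.41 ± 0.12 on the log2 scale, and Hsc70-3 and Cnx99A, at -0.37 ± 0.14 and -0.28 ± 0.11, with adjusted p-values of 0.103, 0.124, 0.214 and 0.239 (edgeR). No WT library is part of the difference itself, but the WT libraries enter the filter, the scaling and the estimate of spread behind its SEs and p-values. On the per-gene counts the log2 fold changes were 0.46, 0.44, -0.35 and -0.24.

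At the level of exon use, Hsc70-3 had the 1 bin called in both knockdowns. Hsc70-3 is annotated with 5 transcripts that share the bins E001 and E002, which hold the coding sequence, and differ in the 5′ UTR bins E003 to E007 upstream. The most distal, E007 (X:11806869-11807117, 249 bases, BDGP6.22), is a first exon of 1 transcript. It held 1808 and 2269 counts in WT, 493 and 260 counts in SF1-IR, and 386 and 362 counts in Hrb87F-IR. As a share of the counts of the shared exon E002, this was 29.4% and 34.8% in WT, against 14.6% and 7.99% in SF1-IR, with 10.2% and 8.83% for Hrb87F-IR. The highest knockdown library was therefore well under the lowest WT library. Relative to the gene, its use changed by -1.45 on the log2 scale in SF1-IR (adjusted p = 0.000408 by edgeR diffSpliceDGE) and by -1.73 with the Hrb87F hairpin (adjusted p = 0.000188). Both calls held without each library in turn, with the changes from -1.99 to -1.07 in SF1-IR and from -1.85 to -1.59 in Hrb87F-IR.

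The neighbouring first-exon bin E006 (X:11806244-11806353, 110 bases), found in 2 of the 5 transcripts, held 36.2% and 35.7% of the E002 count in WT. The shares were 45.5% and 36.2% in the SF1-IR libraries, with 39.9% and 39.6% for Hrb87F-IR. It was not called in either comparison. Of the counts over the 5 upstream bins, E006 took 51.4% and 48.3% in WT, against 72.0% and 76.0% in SF1-IR, with 74.2% and 76.4% for Hrb87F-IR. E007 took 41.7% and 47.0% of them in WT, against 23.1% and 16.8% in SF1-IR, with 19.0% and 17.0% for Hrb87F-IR. E003, E004 and E005 were at most 3.83% of E002 in any library. In CPM, E007 was at 0.150 times WT in SF1-IR and 0.157 times in Hrb87F-IR, and E006 at 0.482 and 0.592 times. The lower level of the gene did not rest on E007, since the other 6 bins together were at 0.416 times WT in SF1-IR and 0.538 times in Hrb87F-IR.

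**Figure D4:**
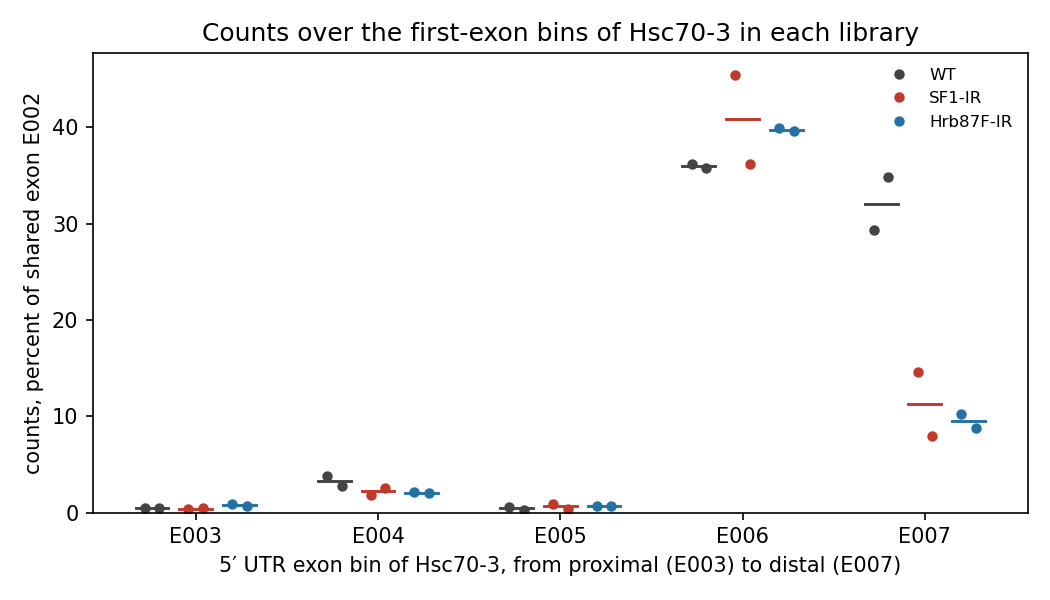
Counts over each 5′ UTR bin of Hsc70-3, from E003 nearest the coding sequence to E007 farthest upstream, as a percent of the counts of shared exon E002, with 1 point per library and a bar at the group mean. E007 lies at 29.4% and 34.8% in WT and between 7.99% and 14.6% in the knockdowns, while E006 lies at 35.7% or above in all 6 libraries.

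The remaining bins held 1 further call. Of the 59 bins, 55 passed the filter, 2 were called in SF1-IR and 1 was called in Hrb87F-IR, where the background was 0.972% and 0.656% of all exon bins tested at an unadjusted p under 0.01. The second call in SF1-IR was the distal 3′ UTR bin E001 of Herp (2L:7796314-7796545), present in 1 of its 2 transcripts. It held 23 and 47 counts in WT, 2 and 4 counts in SF1-IR, and 13 and 34 counts in Hrb87F-IR. Its use was at -3.07 on the log2 scale in SF1-IR, a call at the unadjusted threshold only (adjusted p = 0.906 by edgeR diffSpliceDGE). The call was lost without WT replicate 2, either SF1-IR library or Hrb87F-IR replicate 2, and with limma. The median absolute log2 change in use over the 55 bins was 0.11 for SF1-IR and 0.13 for Hrb87F-IR. The largest rise in both was in the coding bin E005 of Cnx99A (3R:29316504-29316629), found in 1 of its 4 transcripts, which held 8 and 16 counts in WT, 34 and 29 counts in SF1-IR, and 20 and 32 counts in Hrb87F-IR. Its knockdown libraries all lay above WT, and its use was at 1.84 and 1.38 on the log2 scale, without being called (adjusted p of 1 by edgeR diffSpliceDGE in both). Hsc70-3 E005 was at 0.75 and 0.76 and Hsc70-3 E003 at -0.12 and 0.85, none of them called. Within Gp93, whose 5 bins are all in its 1 transcript, the level by bin ran from 0.386 to 0.536 times WT in SF1-IR, and within Cnx99A the 13 bins with at least 10 counts in every library, which leaves out E005, ran from 0.466 to 0.811 times.

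Xbp1 offered a bin for the intron that Ire1 removes. Bin E004 (2R:21144506-21144528, 23 bases, BDGP6.22) is exonic in 1 of the 2 annotated transcripts. It held 381 and 427 counts in WT, 457 and 504 counts in SF1-IR, and 438 and 527 counts in Hrb87F-IR. Against the upstream exon bin E003 these were 7.27% and 8.97% in WT, against 7.48% and 6.63% in SF1-IR, with 8.53% and 9.34% for Hrb87F-IR. Each knockdown overlapped WT, and the change in use by edgeR diffSpliceDGE was -0.21 on the log2 scale for SF1-IR and 0.10 for Hrb87F-IR, neither of them called. These percentages are not a spliced share, because reads that reach into a bin from its neighbours are counted in it, and no reads across the junction were analysed here. The other Xbp1 bins held 5′ UTR and coding sequence (E002), coding sequence (E003) and coding sequence with the 3′ UTR (E005), and ran from 0.951 to 1.14 times WT in SF1-IR and from 0.873 to 1.07 times in Hrb87F-IR with E004 included. The first bin E001, 4 bases long, held at most 4 counts.

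Around these 10 genes, a list of 55 further ER genes was counted, of which 53 passed the filter. In SF1-IR 8 were called lower and 0 higher, where 1.41% of all genes were called lower, and the log2 fold changes of the 53 had a median of -0.33. The number called was 15 with DESeq2 (9.07% of all genes) and 5 with counts per gene. On those per-gene counts, 927 of all 10764 genes tested were called in either direction. It was 0 with only the 2 groups compared and 0 with the replicate block, where 30 and 45 of all genes were called. Fewer were also called whenever a single library was left out, so these calls are as fragile as those of the 10 genes. In Hrb87F-IR 0 were called by edgeR. There 4 were lower at an adjusted p under 0.05 (1.25% of all genes), 24 were at an unadjusted p under 0.05 (15.2%), DESeq2 called 12 (4.64%), and the median was -0.25. The lists were made with earlier results of these data known, so they give no independent support.

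The helpers of Hsc70-3 and Gp93 held 3 of the 8 calls in SF1-IR out of 4 genes, with a median log2 fold change of -1.11. The DnaJ protein shv, related to mammalian DNAJB11, measured 58.2 and 65.3 CPM in WT, 23.2 and 23.0 CPM in SF1-IR, and 33.9 and 34.5 CPM in Hrb87F-IR. It fell by 1.42 ± 0.10 on the log2 scale in SF1-IR (adjusted p = 0.00119 by edgeR) and was at -0.85 ± 0.10 in Hrb87F-IR (adjusted p = 0.0209). P58IPK, the other DnaJ co-chaperone, fell by 1.20 ± 0.11 (adjusted p = 0.00239), and Grp170, a relative of the mammalian nucleotide exchange factor HYOU1, fell by 0.98 ± 0.14 (adjusted p = 0.00947). Sil1, also an exchange factor, was at -1.01 ± 0.27 (adjusted p = 0.0780).

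ER-associated degradation held 3 calls of 7 genes. Der-1, a derlin of the retrotranslocation machinery, measured 65.3 and 67.9 CPM in WT, 22.8 and 26.3 CPM in SF1-IR, and 39.0 and 38.1 CPM in Hrb87F-IR. It fell by 1.44 ± 0.11 on the log2 scale in SF1-IR (adjusted p = 0.00142 by edgeR), the largest fall among the 53. The ubiquitin ligase sip3, the fly Hrd1, fell by 1.13 ± 0.14 (adjusted p = 0.00682) and its partner Hrd3 fell by 0.68 ± 0.10 (adjusted p = 0.00987). TER94, the ATPase that pulls substrates from the membrane, was at 0.15 ± 0.10 (adjusted p = 0.538), the highest log2 fold change of the 7.

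Of the 4 further oxidoreductases 1 was called, Ero1L, the oxidase that recharges Pdi, at 34.3 CPM in WT and 17.2 CPM in SF1-IR on average (log2 fold change -0.996 ± 0.11, adjusted p = 0.00483 by edgeR). Of the 11 genes of N-glycan transfer and glycoprotein folding 1 was called, GCS2alpha, the catalytic subunit of glucosidase II, at 215 CPM in WT and 108 CPM in SF1-IR (-1.0 ± 0.11, adjusted p = 0.00409). Of the 19 translocation and signal peptide genes 0 were called by edgeR in either comparison. Over all genes tested, 1.41% were called lower and 1.27% higher in SF1-IR, and 0.0596% in either direction in Hrb87F-IR. With such shares, 0 of 19 says little about this list. At an unadjusted p under 0.05 there were 9 in each comparison, against 19.6% and 15.2% of all genes. The channel subunit Sec61alpha was at -0.76 ± 0.11 in SF1-IR (adjusted p = 0.0104) and the signal recognition particle subunit Srp54k at 0.18 ± 0.10 (adjusted p = 0.416).

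The PERK, ATF6 and eIF2alpha arm, the other branches of the unfolded protein response, had 0 of 6 genes called in either comparison by edgeR. Of all genes tested, 1.41% were called lower and 1.27% higher in SF1-IR, and 0.0596% in either direction in Hrb87F-IR. With such shares, 0 of 6 says little about this arm. At an unadjusted p under 0.05 there was 1 gene for SF1-IR and 0 genes for Hrb87F-IR, against 19.6% and 15.2% of all genes. The medians were 0.02 and -0.08. PPP1R15, a phosphatase subunit that acts on eIF2alpha, was at -0.33 ± 0.09 in SF1-IR (adjusted p = 0.101 by edgeR) and eIF2alpha itself at 0.14 ± 0.13 (adjusted p = 0.705). The remaining pair of ER stress genes, Manf and BI-1, were at -0.52 ± 0.19 and 0.15 ± 0.10 in SF1-IR (adjusted p = 0.192 and 0.534). Between SF1-IR and Hrb87F-IR, 0 of the 53 passed 0.01 by edgeR, 7 did by DESeq2 (8.45% of all genes), and 14 were at an unadjusted p under 0.05 by edgeR (19.2%). At an adjusted p under 0.05, 5 were lower in SF1-IR and 2 higher, against 3.84% and 3.02% of all genes. The 5 were shv, Der-1, Ero1L, Hrd3 and Edem1, at -0.56, -0.65, -0.71, -0.48 and -0.61 on the log2 scale (adjusted p = 0.0253, 0.020, 0.0173, 0.036 and 0.032 by edgeR). BI-1 and Sec63 were higher, at 0.53 and 0.53 (adjusted p = 0.0302 and 0.048).

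**Figure D5:**
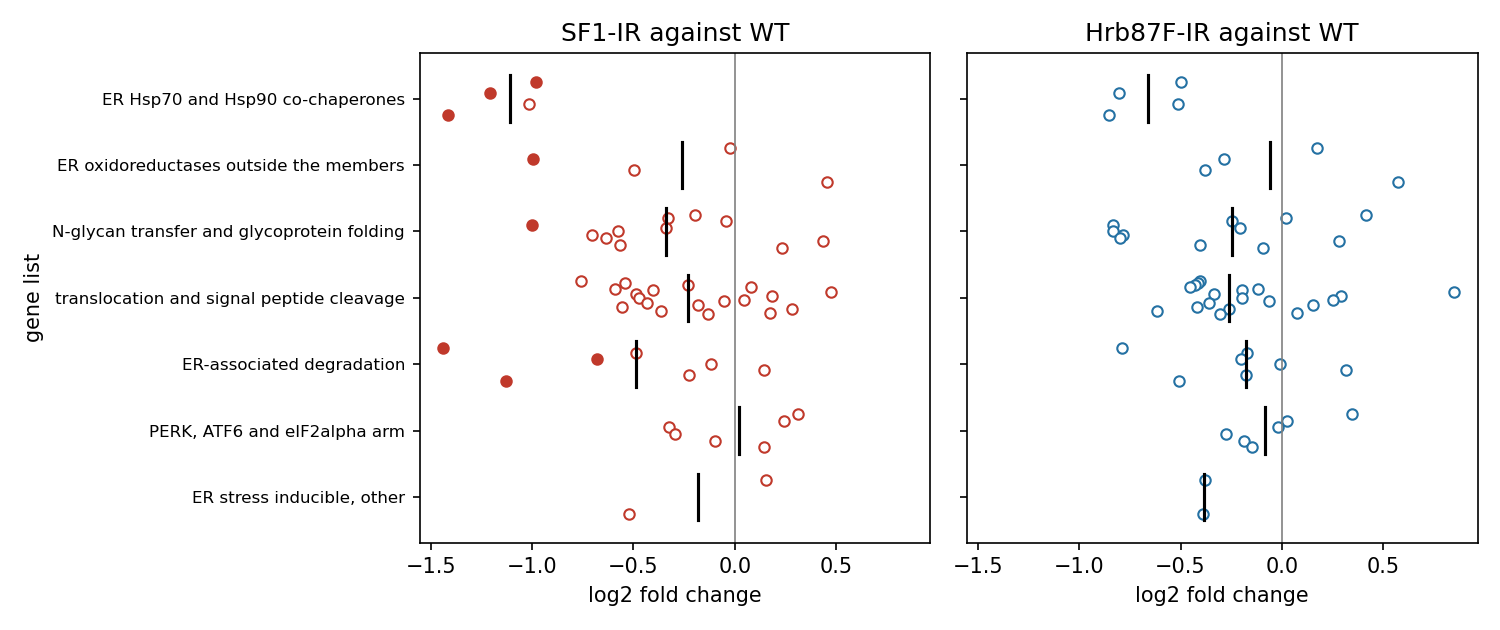
Log2 fold change of each of the 53 further ER genes (1 point per gene, filled at an edgeR adjusted p under 0.01) by list, for each knockdown against the shared WT libraries, with a black line at the list median. The 8 filled points, all in SF1-IR, are 3 co-chaperones, 3 degradation genes, Ero1L and GCS2alpha.

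The pattern of Hsc70-3 over the 6 libraries was most closely matched by another of the 10. With log2 CPM (0.1 CPM added) centred on its mean, the root mean square difference from Hsc70-3 was 0.07 for Gp93, the smallest of all genes tested. Pdi (0.21), Cnx99A (0.22) and Herp (0.28) came within the nearest 147 genes, Calr was at 0.33 and CaBP1 at 0.36, and ERp60 (0.52), Ire1 (0.53) and Xbp1 (0.60) were farther. Outside the 10, the 5 nearest were CG15418 (0.09), P58IPK (0.09), dmrt99B (0.09), Cyp12b2 (0.10) and CG8870 (0.10), of which CG15418 and dmrt99B were at most 3.68 and 0.202 CPM in any library.

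For 4 of the 10 genes an annotated gene on the other strand overlaps the end or start (MICU3 with Ire1, CG4951 with Gp93, cuff with ERp60 and asRNA:CR45396 with Pdi), over 36 to 670 bases. The libraries were stranded, but whether the counting used strand is not given in the sources used here. The widest bin of Gp93 lies away from both ends of the gene, and which end of Pdi is overlapped is not given here. Taken alone, the widest bins of Gp93 and Pdi gave log2 fold changes in SF1-IR of -1.23 (adjusted p = 0.00685 by edgeR) and -0.81 (adjusted p = 0.0154). The Pdi call was lost at a log2 fold change close to the -0.80 over all bins. So was that of Cnx99A (adjusted p = 0.0321 by edgeR), which has no such overlap, and 176 of all genes were called, against 315. The widest bins of ERp60 and Ire1 gave -0.05 and -0.32 in SF1-IR, from -0.10 and -0.01 over all bins, and were not called.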

How the data were processed

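The authors dissected IFM from 6 pools of pupae (WT, SF1-IR and Hrb87F-IR, 2 each), mapped the reads with STAR (2.7.3a) to BDGP6.22 and counted features with featureCounts (Subread 2.0.0). The deposited values used here are whole counts per exon bin and, as an alternative, counts per gene, neither of them normalized. A read that spans several bins is counted in each, so summed bins exceed reads. The deposited DESeq2 and DEXSeq comparison columns hold fold changes and p-values and were not used. Bin positions are those of the authors, and their 5′ UTR, coding and 3′ UTR classes came from the BDGP6.54 annotation, whose exon edges matched all 59 bins.

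Bin counts were summed per gene and tested with edgeR 4.0.16 (glmQLFit with robust fitting, glmQLFTest, TMM, filterByExpr) in R 4.3.3, with the 6 libraries in one fit and Benjamini-Hochberg adjustment over 11753 genes. Genes were called at an adjusted p under 0.01. The SE of a log2 fold change is its size divided by the root of F. Exon use was tested with diffSpliceDGE over 53818 bins and called at an unadjusted p under 0.01, and no SE is given for it. Both scripts were tested on simulated data. Alternatives were DESeq2 1.42.0, limma 3.58.1, other scalings and filters, both forms of the replicate block, the per-gene counts, the widest bin, and fits without each library. The widest bin and the crossed block were chosen after seeing the data.

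The members and lists were chosen with earlier results of these data known. All 10 genes are named, and of the further ER genes those called in a comparison with WT, otherwise the 2 most abundant of a list. Sil1, TER94, Edem1, Sec63 and Cnx99A E005 were named after their values were seen. Exon bins named are those of Hsc70-3 and Xbp1 and any called bin. The 5 nearest genes to Hsc70-3 have the smallest root mean square difference in centred log2 CPM, with 0.1 CPM added before the log. Spase22-23, crc, Ostalpha and promoter and protein sequences were not analysed here.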

Additional observations from a re-analysis of the deposited data

How the results depend on the processing

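With the exon-bin counts, Hsc70-3, Gp93, Cnx99A, Pdi, CaBP1, Calr and Herp kept a negative log2 fold change in both comparisons with WT under all 15 other alternatives run. The number of the 10 genes called in SF1-IR moved from 4 to 7 with DESeq2, to 0 with only the 2 groups compared, to 0 with the replicate block (5 at an adjusted p under 0.05 and 7 at an unadjusted p under 0.05), to 1 with counts per gene (Hsc70-3, called higher) and to 2 with the widest exon bin, and lay between 0 and 2 when a library was left out. In Hrb87F-IR it moved from 0 to 4 at an adjusted p under 0.05, 7 with DESeq2, 2 with no filter, 4 with at least 10 counts in every library, 1 with counts per gene (Hsc70-3, called higher) and 4 with the crossed replicate block. It was 0 with the replicate block and whenever a library was left out. Between SF1-IR and Hrb87F-IR it was 0 under every alternative. Member exon bins called in SF1-IR went from 2 to 1 at an adjusted p under 0.05, with limma voom and diffSplice, with at least 10 counts in every library and with the replicate block, and lay between 1 and 2 when a library was left out. Over all genes, SF1-IR calls went from 315 of 11753 to 1066 with DESeq2 and 45 with the replicate block. They were 30 of 11477 with only the 2 groups, 927 of 10764 with counts per gene and 176 of 11031 with the widest bin. Hrb87F-IR calls went from 7 of 11753 to 545 with DESeq2, 277 with the crossed block and 0 with the replicate block. They were 81 of 14692 with no filter, 228 of 9284 with the 10-count filter and 666 of 10764 with counts per gene. The causes of these changes were not tested.

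The replicate numbers were not taken as pairs, since no label ties them to a shared batch and not every pair of groups correlated above 0.1. The differences between replicates 1 and 2 correlated across 11753 genes at -0.756 between WT and SF1-IR, -0.531 between WT and Hrb87F-IR and 0.453 between SF1-IR and Hrb87F-IR. With the WT numbers crossed, 6 of the 10 genes were called in SF1-IR and 4 in Hrb87F-IR, with 823 and 277 of all 11753 genes (315 and 7 without a block).

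With counts per gene the log2 fold change in SF1-IR turned to 0.96 for Hsc70-3, 0.0115 for Calr, 0.45 for Cnx99A, 0.24 for CaBP1, 0.76 for Ire1, 0.40 for Herp and 0.32 for the median of the 10, and the calls of Gp93 (-0.0047, adjusted p = 0.984) and Pdi (-0.51, adjusted p = 0.135 by edgeR) were lost. In Hrb87F-IR it turned to 1.31 for Hsc70-3, 0.29 for Gp93, 0.69 for Cnx99A, 0.27 for Xbp1, 0.32 for Ire1, 0.60 for Herp and 0.28 for the median. The other changes of sign were in values near 0. Ire1 in SF1-IR was 0.00556 with at least 10 counts in every library and 0.0416 with only the 2 groups compared. With the widest exon bin, Xbp1 in Hrb87F-IR was 0.0854, and SF1-IR against Hrb87F-IR was -0.0255 for ERp60 and -0.11 for Ire1. When a library was left out, SF1-IR against WT ranged from -0.18 to 0.0541 for ERp60 and from -0.10 to 0.14 for Ire1. Hrb87F-IR against WT ranged from -0.10 to 0.0121 for Xbp1, from -0.28 to 0.00449 for ERp60, from -0.0717 to 0.29 for the use of Xbp1 E004 and from -0.97 to 0.46 for the use of Herp E001. SF1-IR against Hrb87F-IR ranged from -0.0144 to 0.20 for Calr, from -0.0812 to 0.0284 (without Hrb87F-IR replicate 2) for the median of the 10 and from -0.071 to 0.18 for ERp60.

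Bins of under 50 counts, such as Herp E001, allow little precision, and the WT values rest on 1 of 2 deposited tables that differ.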
